A study of Mus musculus with 8 samples.

Results

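Mono-methylation of histone H3 at lysine 4 (H3K4me1) was compared between mouse embryonic fibroblasts (MEFs) reprogrammed with wild-type Nanog and MEFs reprogrammed with a Nanog fusion, at day 5. The comparison used 2 of the 8 CUT&Tag libraries of the series, 1 per arm. In CUT&Tag, a transposase tethered to an antibody inserts sequencing adapters into the chromatin around the antibody's target. Peaks of both arms that overlapped or touched were merged into 86573 regions. A region with a peak in both arms was called shared (41500 regions), a region with a peak in wild-type Nanog only was called lost (30087), and a region with a peak in the fusion only was called gained (14986). Every region was kept, and all statements on lost and gained regions are statements about called peaks.

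The arm labelled "Nanog+Oct4" (NanogWT) received Nanog and Oct4, and the arm labelled "NanogN70+Oct4" received the NanogN70 construct and Oct4. The study calls its fusion NanogBiD, in which Nanog is joined to the BRG1-interacting domain of SS18, a subunit of the BAF chromatin remodelling complex. The labels do not spell out NanogN70, and it is taken here to be NanogBiD. Both arms started from MEFs of embryos from male Oct4-GFP reporter (OG2) mice and 129 females, received the factors by retrovirus and were kept in iCD3 medium. The antibody tag of the labels reads H3K4me, and the titles and the study's methods give H3K4me1. Each of 12 fibroblast marker genes had a peak in at least 1 arm, and all but Dcn (0 and 1 peaks) and Lum (1 and 0) had peaks in both, among them the collagen gene Col1a1 with 5 peaks in each arm. Of the markers of other types the culture could hold, 3 of 4 macrophage, 4 of 4 endothelial and 2 of 3 keratinocyte genes also had a peak within 20 kb. Their peaks numbered 11 and 13, 16 and 14, and 11 and 2 in NanogWT and NanogBiD, and the part of such cells in the results was not tested. Trp63, the p63 gene, had 10 and 2 of the keratinocyte peaks, with 8 lost regions, and Krt5 had 1 and 0. Krt14 had no peak in either arm. Of all 21979 protein-coding genes, 18070 had a peak in the same kind of window in at least 1 arm. Having a peak therefore does not tell cell types apart.

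H3K4me1 is laid down mainly by the methyltransferases KMT2C and KMT2D and marks enhancers, both active ones that also carry acetylated H3K27 (H3K27ac) and primed or poised ones that do not. At active CpG-rich promoters H3K4me3 occupies the start site itself and H3K4me1 usually flanks it. The mark is known in reprogramming as a trace of fibroblast enhancers that are decommissioned and of pluripotency enhancers that are primed before their genes are on.

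Each arm had 1 library into which replicates had been merged before peak calling, so no test between the arms was possible and none is given. Intervals in parentheses are 95% Wilson intervals for shares and order-statistic intervals for medians. They cover counting error only, not the spread between cultures. The NanogWT list held 72242 peaks and the NanogBiD list 57156 peaks, both with a lowest score of 50 (the score is -10 times the log10 of the peak caller's p-value). Library depth was not given and the tag counts were not scaled to it, so a longer list can reflect deeper sequencing as well as more marked chromatin, and the 2 cannot be told apart. For this reason the main comparisons are also given at equal list size, with the NanogWT list limited to its 57156 highest-scoring peaks, where 19461 regions were lost, 19168 gained and 37332 shared. As a second check the 20000 highest-scoring peaks of each list were compared.

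The sequences that follow show what is counted below, CpG dinucleotides and the octamer bound by OCT4. They are single regions of both classes, and the differences in share between the classes cannot be read from them. The first set gives 101 bases of GRCm38 (RefSeq) from regions within 0.5 kb of a start, gained at Tax1bp1 and Ranbp3 and lost at Plekha1, followed by the strongest lost and gained regions away from starts, 15145 bp upstream of Rfx4 and in an intron of Slc1a1. Windows are centred on the summit, or moved to the nearest place in the region without an annotated untranslated exon, on the plus strand, and capitals mark CpG dinucleotides.
Tax1bp1 start, gained, chr6:52713626-52713726: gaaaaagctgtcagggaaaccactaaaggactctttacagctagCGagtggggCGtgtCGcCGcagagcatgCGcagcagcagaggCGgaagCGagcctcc
Ranbp3 start, gained, chr17:56673180-56673280: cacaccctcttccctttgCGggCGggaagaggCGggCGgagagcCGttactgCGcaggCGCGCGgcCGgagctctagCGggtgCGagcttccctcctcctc
Plekha1 start, lost, chr7:130865653-130865753: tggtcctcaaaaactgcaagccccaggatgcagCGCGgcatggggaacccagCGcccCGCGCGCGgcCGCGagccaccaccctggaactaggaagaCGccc
Rfx4 upstream, lost, chr10:84740867-84740967: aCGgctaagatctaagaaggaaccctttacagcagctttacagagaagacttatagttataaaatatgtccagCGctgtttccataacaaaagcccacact
Slc1a1 intron, gained, chr19:28845414-28845514: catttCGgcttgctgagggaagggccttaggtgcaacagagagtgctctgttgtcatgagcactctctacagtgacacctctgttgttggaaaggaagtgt
The start windows held 7, 12 and 10 CpG dinucleotides, the Rfx4 window 2 and the Slc1a1 window 1.

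The second set gives the 3 highest-scoring gained and the 3 highest-scoring lost regions over 2 kb from a start that held the octamer ATGCAAAT, named by the nearest protein-coding start. They are 48 bases of GRCm38 on the strand that reads ATGCAAAT, with the octamer in capitals, and were chosen after the share of octamers had been seen.
Dusp10 gained, chr1:183933937-183933984: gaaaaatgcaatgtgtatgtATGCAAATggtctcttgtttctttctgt
Hs6st1 gained, chr1:36039079-36039126: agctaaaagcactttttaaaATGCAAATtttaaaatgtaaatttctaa
Sez6 gained, chr11:77948095-77948142: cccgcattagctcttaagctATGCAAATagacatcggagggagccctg
Sp3 lost, chr2:72881506-72881553: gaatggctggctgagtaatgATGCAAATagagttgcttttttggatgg
Elf5 lost, chr2:103382563-103382610: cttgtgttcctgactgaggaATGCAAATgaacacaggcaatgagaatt
Qrfpr lost, chr3:36341314-36341361: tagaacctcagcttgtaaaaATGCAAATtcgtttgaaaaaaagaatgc
The gained regions near Dusp10, Hs6st1 and Sez6 each overlapped a FLAG and a BRG1 peak in NanogBiD and no BRG1 peak in NanogWT. That near Hs6st1 also overlapped a FLAG peak in NanogWT, and those near Dusp10 and Sez6 did not. Of the lost regions, that near Sp3 overlapped peaks of both targets in both arms, that near Elf5 overlapped both in NanogWT only, and that near Qrfpr overlapped neither in either arm.

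Gene starts stood apart from the rest of the genome. Within 0.5 kb of an annotated transcript start, 10955 of 14357 regions were shared, 1892 were lost and 1510 were gained. Lost regions therefore made up 55.6% (53.9 to 57.3) of the lost and gained regions at starts, against 67.7% (67.2 to 68.1) farther away. Beyond 0.5 kb the share hardly varied with distance. It was 68.3% between 0.5 and 2 kb, 69.6% between 2 and 5 kb, 68.1% between 5 and 10 kb and 67.6% (65.7 to 69.5) over 100 kb, with a lowest value of 65.9% between 50 and 100 kb. The share of regions that both arms held was 76.3% within 0.5 kb, 50.5% from 0.5 to 2 kb and 35.0% over 100 kb.

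At equal list size the direction at starts turned. Within 0.5 kb, 1217 regions were lost and 2258 gained, so that lost regions were 35.0% (33.5 to 36.6) and 1.86 regions were gained for each lost. Beyond 0.5 kb 18244 were lost and 16910 gained, and lost regions were 51.9% (51.4 to 52.4). With the 20000 highest-scoring peaks 989 regions were lost and 2180 gained at starts, a lost share of 31.2% (29.6 to 32.8) against 55.0% (54.1 to 55.9) elsewhere. Counted from starts of protein-coding transcripts alone, the full lists gave a lost share of 48.8% (46.6 to 50.9) within 0.5 kb. The gap between starts and other places thus appeared in each of these lists, while the side of 50% on which starts fell varied with how the lists were limited and with the set of starts. With scores of at least 100, which leaves NanogWT the longer list, it was 60.6% (58.9 to 62.3). The boundary of 0.5 kb was set after the distance bins had been seen. With the 2 kb window planned for promoters the shares were 62.6% (61.5 to 63.7) for the full lists and 42.6% (41.4 to 43.8) at equal list size.

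**Figure D1:**
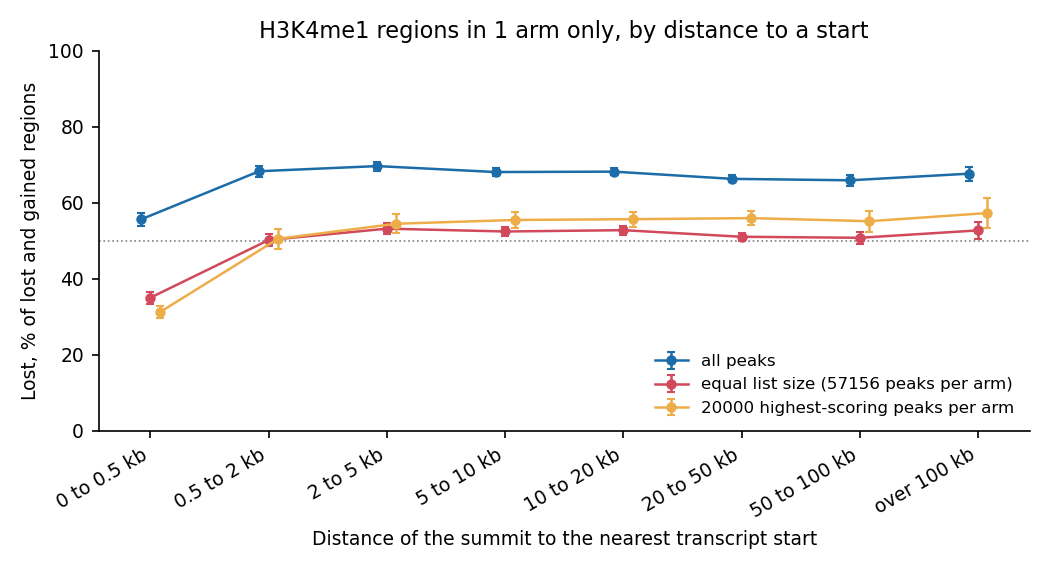
Share of lost regions among lost and gained H3K4me1 regions (y axis, percent) by distance of the summit to the nearest annotated transcript start (x axis), for all peaks, at equal list size and for the 20000 highest-scoring peaks of each arm. Bars are 95% Wilson intervals and the dotted line marks equal numbers. Each line is lowest within 0.5 kb, at 55.6%, 35.0% and 31.2%, and nearly flat beyond 2 kb.

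The same was seen in how each library ranked its own peaks, which needs no merging. Among the 1000 highest-scoring peaks, 48.7% (45.6 to 51.8) of NanogWT and 63.2% (60.2 to 66.1) of NanogBiD summits lay within 0.5 kb of a start. Among the 10000 highest the values were 36.4% and 45.1%, and among the 57156 highest they were 20.1% and 22.1%. Starts within 0.5 kb take up 3.21% of chromosomes 1 to 19 and X. The summits sat on both sides of protein-coding starts in both arms, with 8.46% of NanogWT and 11.0% of NanogBiD summits in the 0.5 kb upstream and 5.61% and 7.12% in the 0.5 kb downstream.

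Shared regions moved the same way. Their NanogBiD summits were lower than their NanogWT summits, by a median log2 ratio of -0.12 within 0.5 kb of a start and -0.21 beyond. Width at starts was nearly even, with a median of 1222 bp in NanogWT and 1203 bp in NanogBiD, while beyond 0.5 kb the NanogBiD peaks were narrower, 935 bp against 1077 bp. NanogBiD was the narrower arm at 52.6% of shared regions at starts and at 66.0% of the others. These tag counts are not scaled to depth, so only the gap between starts and other places can be read from them.

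CpG content separated the regions at starts further. In the 501 bp around the summit, the median number of CpG dinucleotides within 0.5 kb of a start was 11 in lost, 23 in gained and 32 in shared regions, and 34.2%, 54.9% and 75.2% of them held at least 20. Lost regions made up 73.4% (68.8 to 77.6) of lost and gained regions at starts with at most 4 CpG dinucleotides, 58.9% (55.4 to 62.4) at those with 10 to 19 and 38.5% (34.6 to 42.5) at those with 40 or more. The share therefore fell below 50% at the CpG-richest starts with the full lists, without any limit on list length. Beyond 2 kb it went from 69.6% (68.9 to 70.3) with at most 4 to 62.4% (61.1 to 63.7) with 10 to 19 and 56.3% (42.3 to 69.3) with 40 or more, the last from 48 regions. When the lists were of equal size, the share at starts went from 56.6% (51.2 to 61.9) to 38.6% (35.2 to 42.2) and 21.6% (18.8 to 24.8) in the same bins, and beyond 2 kb from 54.5% (53.6 to 55.3) to 46.3% (44.9 to 47.8) and 36.4% (23.8 to 51.1). Among shared regions at starts the median log2 height ratio of NanogBiD over NanogWT was -0.20 with at most 4 and -0.10 with 40 or more.

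**Figure D2:**
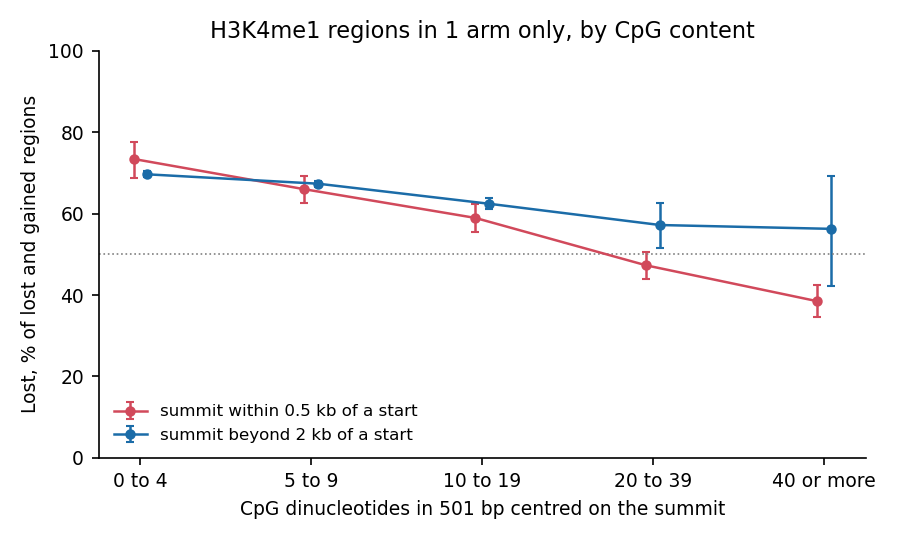
Share of lost regions among lost and gained H3K4me1 regions (y axis, percent) by the number of CpG dinucleotides in 501 bp centred on the summit (x axis), within 0.5 kb of a start and beyond 2 kb. Bars are 95% Wilson intervals and the dotted line marks equal numbers. At starts the share goes from 73.4% to 38.5%.

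Named regions within 2 kb of a protein-coding start show both classes at promoters of unlike CpG number. Ranbp3, which encodes a Ran-binding protein of the nuclear transport machinery, had a NanogBiD peak of 29 tags and no NanogWT peak, with 43 CpG dinucleotides in 501 bp. Tax1bp1, an autophagy receptor gene, had a NanogBiD summit of 18 tags 3 bp from its start, also with 43. Plec, which encodes the cytoskeletal linker plectin, and Irf9, an interferon-response transcription factor gene, had gained peaks of 30 and 28 tags with 16 CpG dinucleotides each. This is below the median of 23 in gained regions at starts, and the Plec summit lay 708 bp from a start. On the lost side, the start of Plekha1, a gene of a phosphoinositide-binding protein, had a NanogWT peak of 31 tags and 47 CpG dinucleotides, and Cic, which encodes the transcriptional repressor Capicua, a NanogWT peak of 33 tags and 42. The tallest lost peak near a protein-coding start lay 1922 bp upstream of Ndufa4l2, with 36 tags and 30 CpG dinucleotides. These lost regions were all above the median of 11 in lost regions at starts, so the examples do not follow the difference in medians. Tall start peaks often had low scores, 52.5 at Ndufa4l2 and 53.1 at Ranbp3, close to the lowest score of 50 that either list holds.

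Among 13272 protein-coding genes with a peak over a start in either arm, 1041 (7.84%) had it in NanogWT only and 1102 (8.3%) in NanogBiD only. When the lists were of equal size, 729 of 12960 genes (5.62%) had it in NanogWT only and 1728 (13.3%) in NanogBiD only. For the full lists, start peaks in 1 arm only were thus about as frequent in NanogBiD as in NanogWT, although the NanogWT list was the longer one.

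Most regions of each class lay over 0.5 kb from a start, 93.7% of lost, 89.9% of gained and 73.6% of shared ones. Introns held 13851 lost and 6191 gained regions, a lost share of 69.1% (68.5 to 69.7), and intergenic sequence held 10524 and 5487, a share of 65.7% (65.0 to 66.5). Exons over 2 kb from a start held 994 and 486 (67.2%). For equal lists the shares were 53.5% (52.7 to 54.3) in introns, 50.4% (49.5 to 51.2) in intergenic sequence and 51.7% (49.0 to 54.5) in exons. Autosomes ranged from 65.0% to 70.1% and the X chromosome had 61.8% (57.5 to 65.8), with 323 lost, 200 gained and 293 shared regions. For equal lists the X chromosome had 43.2% (38.5 to 48.0) and autosomes 47.6% to 53.6%. Lost and gained regions lay at similar distances from the nearest shared region, a median of 14098 bp (13887 to 14342) and 14918 bp (14587 to 15244), and only 6.24% and 5.69% lay within 1 kb of one. When regions up to 12.5 kb apart were joined into clusters, the lost share was 64.7% (63.8 to 65.6) for lone regions, 66.7% in clusters of 2 to 4 and 71.6% (69.2 to 74.0) in clusters of 10 or more. With lists of equal size it was 50.3% and 50.4% for lone regions and clusters of 10 or more, so the rise was not seen there. The 2861 clusters of 5 to 9 regions held 5905 lost and 2664 gained regions. Of these clusters 9 were lost whole and 0 gained whole, and at equal list size 0 of 2008 were either. The longest, with 7 lost regions, spanned 35773870 to 35823425 on chromosome 7, its middle 4.32 kb from a start of the zinc finger gene Zfp507, while no cluster made up of gained regions alone had more than 3.

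Lost regions were wider than gained ones. The median width was 796 bp (791 to 800) for lost, 692 bp (687 to 696) for gained and 1242 bp (1236 to 1248) for shared regions, and at equal list size 866, 716 and 1274 bp. The gap was not particular to these classes. Over whole lists the median peak width was 957 bp in NanogWT and 895 bp in NanogBiD. In shared regions the peaks of the 2 arms had medians of 1117 and 1002 bp. The lost share rose with width, from 53.7% (52.2 to 55.1) up to 500 bp to 68.9% over 750 and up to 1000 bp and 84.9% (82.5 to 87.0) over 2000 and up to 3000 bp, where 843 regions were lost and 150 gained. With the equal lists it rose from 15.4% (14.1 to 16.8) to 70.2% (67.2 to 73.0) over the same widths. The equal list keeps NanogWT peaks from a score of 62.17 and NanogBiD peaks from 50, and low-scoring peaks were the narrower ones, so the limit itself takes out narrow lost regions and the steeper rise cannot be read as a difference between the arms. At starts the rise was flatter. With the full lists the share within 0.5 kb was 49.8% (43.6 to 56.0) up to 500 bp and 55.2% (46.8 to 63.4) over 2000 and up to 3000 bp, with a highest value of 67.4% (52.5 to 79.5) over 3000 bp.

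Taller peaks were wider in both lists, so widths are also given side by side at 1 tag number. Tag numbers are not scaled to depth, so the same number need not be the same height in both arms, and these widths are a description only. At a summit of 16 tags, 2358 lost peaks had a median width of 969 bp (949 to 992) and 605 gained peaks 841 bp (811 to 870). At 12 tags the medians were 699 bp (692 to 706) and 672.5 bp (666 to 680), and at 10 tags 565 and 563 bp with overlapping intervals. Over all peaks of a list the order was different at low tag numbers. At 12 tags the median was 733 bp in NanogWT and 767 bp in NanogBiD, at 16 tags it was 1068 bp in both, and at 20 tags 1319 and 1220 bp. The lost regions were low on the whole, with a median summit of 13 tags against 12 in gained and 17 in shared regions, where the taller arm was counted.

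**Figure D3:**
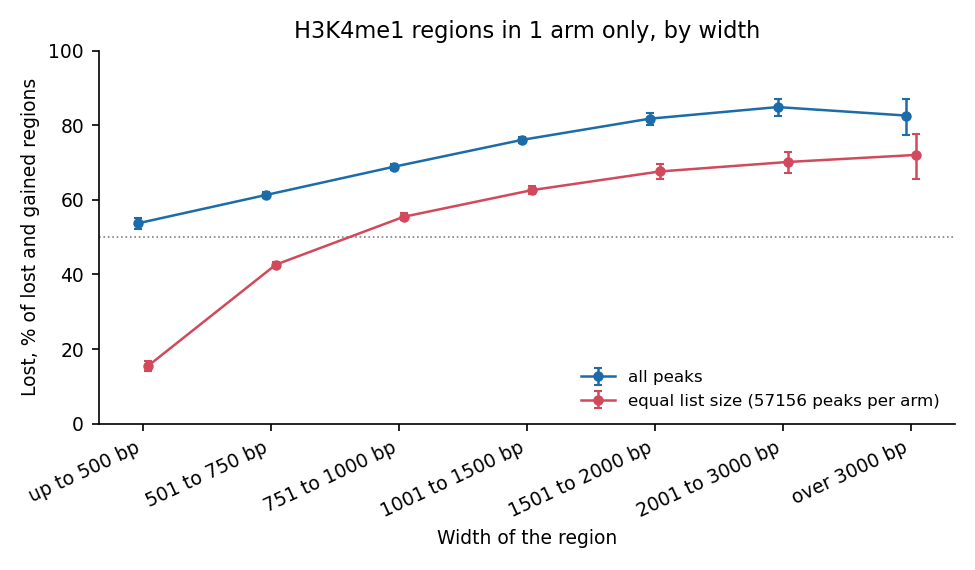
Share of lost regions among lost and gained H3K4me1 regions (y axis, percent) by width of the region (x axis), for all peaks and at equal list size. Bars are 95% Wilson intervals and the dotted line marks equal numbers. The share rises from 53.7% up to 500 bp to 84.9% over 2000 and up to 3000 bp with all peaks, and from 15.4% to 70.2% at equal list size, where the higher score limit of NanogWT (62.17 against 50) takes out narrow lost regions.

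The other 3 targets of the study were read at the same regions. FLAG marks the tagged factor, BRG1 is the ATPase of the BAF complex and H3K27ac marks active enhancers and promoters. These lists differ in length between arms, with 58940 and 74782 peaks for FLAG, 30859 and 53748 for BRG1 and 35452 and 42598 for H3K27ac in NanogWT and NanogBiD, so each overlap is also given with every list, H3K4me1 included, limited to the length of the shorter list of its target. Among gained regions, 35.0% (34.3 to 35.8) overlapped a FLAG peak of NanogWT and 54.8% (54.0 to 55.6) one of NanogBiD. For BRG1 these shares were 13.97% (13.4 to 14.5) and 41.5% (40.7 to 42.2), and for H3K27ac 16.3% (15.7 to 16.9) and 30.4% (29.7 to 31.1). With equal lists the gaps were smaller, 38.6% and 47.9% for FLAG, 17.4% (16.9 to 17.99) and 26.8% (26.2 to 27.4) for BRG1 and 20.5% (19.9 to 21.05) and 27.8% (27.1 to 28.4) for H3K27ac. Among lost regions the FLAG shares were 33.8% and 29.0% and the H3K27ac shares 20.5% and 18.7%, both lower in NanogBiD against the order of list lengths. BRG1 was at 14.5% (14.1 to 14.9) of lost regions in NanogWT and at 20.8% (20.3 to 21.3) in NanogBiD, and with equal lists the order turned, 16.7% (16.2 to 17.2) and 11.5% (11.1 to 11.97). The FLAG shares at lost regions were then 37.5% and 24.1% and the H3K27ac shares 23.1% and 15.9%. Many lost regions had no peak of another target in either arm, 15006 of 30087 or 49.9% (49.3 to 50.4), against 34.0% (33.3 to 34.8) of gained and 14.1% (13.8 to 14.4) of shared regions. For equal lists 49.1% of lost and 38.5% of gained regions had none.

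Read the other way round, the lost share followed the arm in which the other target was found. Where FLAG was found in NanogWT only, lost regions made up 84.4% (83.3 to 85.4) of lost and gained regions, and where it was found in NanogBiD only, 39.8% (38.5 to 41.0). Without FLAG in either arm the share was 74.3% (73.7 to 74.8). For BRG1 the shares were 81.7% in NanogWT only, 43.6% (42.5 to 44.7) in NanogBiD only and 72.6% in neither. For H3K27ac they were 87.6%, 44.6% (43.2 to 46.1) and 68.5%. With equal lists all shares were lower and the order held, 69.8% (68.5 to 71.0), 22.3% (21.1 to 23.6) and 57.0% (56.3 to 57.7) for FLAG, 62.7%, 23.5% and 54.3% for BRG1 and 74.2%, 28.2% and 51.9% for H3K27ac. Shared regions followed the same order in their height, with a median log2 ratio of NanogBiD over NanogWT of -0.30 where FLAG was in NanogWT only and -0.12 where it was in NanogBiD only.

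The 4 targets differed in what happened at starts at equal list size. Lost regions were 35.0% of lost and gained H3K4me1 regions within 0.5 kb, as above. The same share was 48.8% (46.4 to 51.2) for H3K27ac, 66.3% (64.4 to 68.0) for FLAG and 85.0% (83.7 to 86.3) for BRG1, for which 2478 start regions were lost and 437 gained. Beyond 0.5 kb the shares of H3K27ac, FLAG and BRG1 were 49.7%, 48.5% and 44.4%. With the full lists, which are longer in NanogBiD for these 3 targets, the shares within 0.5 kb were 30.2% (28.2 to 32.4) for H3K27ac, 41.7% (39.9 to 43.6) for FLAG and 38.3% (36.4 to 40.3) for BRG1, so that FLAG and BRG1 fell on the other side of 50%. Their shares beyond 0.5 kb were 33.7%, 31.3% and 15.4%, and for FLAG and BRG1 the share was higher at starts than elsewhere under both list lengths.

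Motifs were searched as exact letters on both strands in the 501 bp around each summit over 2 kb from a start. The octamer ATGCAAAT, bound by OCT4 and other POU factors, was found in 4.04% (3.802 to 4.29) of lost, 6.35% (5.93 to 6.80) of gained and 5.47% (5.20 to 5.75) of shared regions. At equal list size lost and gained regions held it in 3.99% (3.70 to 4.30) and 6.29% (5.92 to 6.69), and over all classes of the full lists the share was 5.07%. Windows of the same length 5 kb downstream held it in 3.33%, 3.61% and 3.10%. The core ACAATG bound by SOX factors was found in 26.1% (25.6 to 26.6) of lost and 28.3% (27.5 to 29.1) of gained regions, against 27.02% and 26.7% downstream. The AP-1 motif TGACTCA, common in fibroblast enhancers, was found in 19.2% (18.8 to 19.7) of lost, 19.02% (18.3 to 19.7) of gained and 24.02% (23.5 to 24.5) of shared regions, all above the 8.37% of the downstream windows. The shares of lost and gained regions for the TEAD core GGAATG were 29.4% and 29.0%, and for the RUNX core TGTGGTT 11.98% and 12.4%. A window can hold several of these motifs.

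Octamer and FLAG were then read together. Lost regions were 57.0% (54.7 to 59.3) of lost and gained regions with an octamer (1024 lost and 772 gained) and 68.1% (67.6 to 68.6) of those without. Where FLAG was found in NanogBiD only, 89 regions with an octamer were lost and 229 gained, a lost share of 28.0% (23.3 to 33.2), against 39.6% (38.2 to 40.9) without an octamer. Where FLAG was found in both arms the shares were 48.8% (44.6 to 53.0) and 60.6% (59.5 to 61.6). Where FLAG was found in NanogWT only, the shares with and without an octamer were 85.4% (79.1 to 90.1) and 85.8% (84.7 to 86.9). Without FLAG in either arm they were 68.8% (65.5 to 72.0) and 75.2% (74.6 to 75.8), so the lower share with an octamer was also seen without a FLAG peak. With equal lists the share was 12.7% (9.18 to 17.4) with an octamer and 22.3% (20.9 to 23.7) without where FLAG was in NanogBiD only, 31.01% (27.1 to 35.2) and 42.5% (41.3 to 43.6) where it was in both arms, and 67.6% (60.4 to 74.0) and 72.6% (71.3 to 74.0) where it was in NanogWT only. Without FLAG in either arm it was 51.3% (47.6 to 55.1) and 58.6% (57.8 to 59.4). Among gained regions with an octamer 65.5% (62.1 to 68.8) overlapped a FLAG peak and 49.7% (46.2 to 53.3) a BRG1 peak in NanogBiD, against 53.9% (53.0 to 54.8) and 38.8% (38.0 to 39.7) of gained regions without one. The gap was not particular to gained regions. In NanogBiD, lost regions with and without an octamer overlapped FLAG at 34.5% and 27.9% and BRG1 at 25.7% and 19.3%, and shared regions FLAG at 76.0% and 67.7% and BRG1 at 65.5% and 57.9%.

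**Figure D4:**
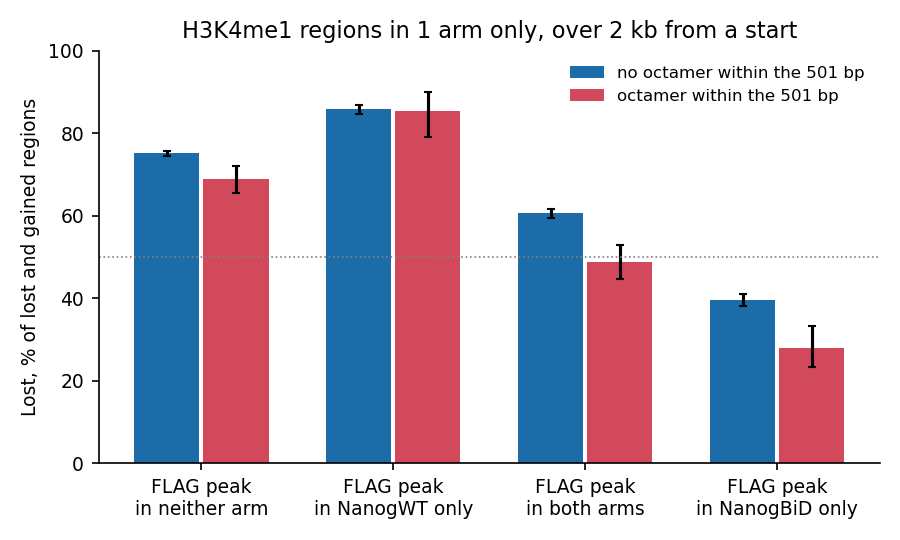
Share of lost regions among lost and gained H3K4me1 regions over 2 kb from a start (y axis, percent, bars from 0), by the arm in which a FLAG peak overlapped the region (x axis) and by the octamer ATGCAAAT in the 501 bp around the summit. Error bars are 95% Wilson intervals and the dotted line marks equal numbers. The lowest share, 28.0%, is at regions with an octamer and FLAG in NanogBiD only.

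At the level of genes, peaks were counted over each protein-coding gene and 20 kb on either side. Of 18070 genes with a peak, 4784 (26.5%) had at least 2 fewer peaks in NanogBiD and 849 (4.7%) at least 2 more. At equal list size 2040 of 17913 (11.4%) had at least 2 fewer and 2215 (12.4%) at least 2 more. These calls mostly came from whole regions. Of the genes with fewer peaks 94.8% also had at least 2 more lost than gained regions, and of the genes with more peaks 87.6% at least 2 more gained than lost, the rest being regions split into several peaks in 1 arm. Long genes hold more peaks and were called more often. With genes split by length into 4 groups of like size, 47.5% of the longest (53.7 kb and more) had fewer peaks and 6.02% more, and of the shortest 14.8% and 3.47%. Windows of neighbouring genes overlap, so genes are not independent.

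The genes named here had the largest differences at equal list size among genes that changed the same way with the full lists. All were over 100 kb long, and long genes were called more often, as above. Over all genes the difference of NanogBiD minus NanogWT ran from -47 to 5 with the full lists and from -16 to 12 at equal list size. Nckap5, a gene of the cytoskeleton-associated NAP5 protein, had 43 peaks in NanogWT and 18 in NanogBiD. Its regions were 29 lost, 4 gained and 14 shared, and at equal list size NanogWT still had 34. In the same window FLAG peaks numbered 29 and 32, BRG1 peaks 15 and 23 and H3K27ac peaks 16 and 15. Tenm2, a teneurin gene of synaptic adhesion, had 54 and 33 H3K4me1 peaks, Nrg1, which encodes the growth factor neuregulin, 29 and 13, and Dst, which encodes the cytolinker dystonin, 30 and 14. Myt1l, a neuronal transcription factor gene, had 27 and 10, and its peak over a start was found in NanogWT only, though at equal list size neither arm had one. The others were Arhgap26, a RhoGAP gene (40 and 21), Ptprn2, a receptor phosphatase gene of secretory vesicles (27 and 11), and Prkag2, a subunit gene of AMP-activated kinase (25 and 11).

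The largest gains were smaller. Bcr, a signalling scaffold gene, had 8 peaks in NanogWT and 13 in NanogBiD, with 6 regions gained, 1 lost and 7 shared, and Rasgrf2, a Ras exchange factor gene, had 11 and 15. Peli2, an E3 ligase gene of Toll-like receptor signalling, had 12 and 15 and a peak over a start in NanogBiD only. Maml3, a Notch coactivator gene, had 23 and 25, with 15 in NanogWT at equal list size. Cux1, a homeobox gene, had 22 and 24, Ttc28 24 and 27, the synaptic vesicle gene Sv2c 12 and 13, and the synaptotagmin gene Syt1 15 and 18. The full-list difference of Sv2c was below the 2 peaks of a call, and NanogWT had 5 peaks there at equal list size. Its regions were 3 lost, 3 gained and 9 shared. Lost and gained regions were also near balance at Maml3 (7 and 9), Cux1 (9 and 11) and Ttc28 (9 and 10). They were less so at Rasgrf2 (3 and 8), Peli2 (3 and 6) and Syt1 (4 and 7).

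**Figure D5:**
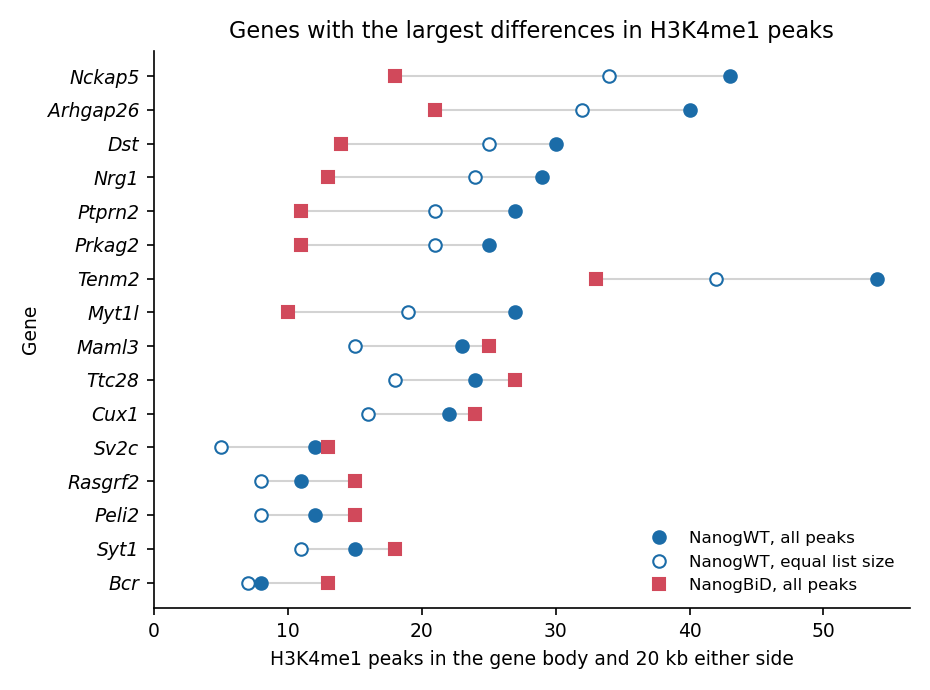
Number of H3K4me1 peaks in the gene body and 20 kb on either side (x axis) of the 8 genes with the largest loss and the 8 with the largest gain at equal list size (y axis). Only genes that changed the same way with the full lists were ranked. Filled circles are NanogWT, open circles NanogWT at equal list size and squares NanogBiD, 1 library each. Nckap5 has 43, 34 and 18 peaks, and Bcr 8, 7 and 13.

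Among 31 pluripotency genes with a peak, 5 had at least 2 fewer peaks (background 26.5%) and 1 at least 2 more (background 4.7%), and together they had 110 peaks in NanogWT and 84 in NanogBiD. With equal lists 3 had fewer and 3 more (background 11.4% and 12.4%), and the total in NanogWT was 89. Their median difference was -1 with the full lists, as over all genes, and 0 with equal lists. Esrrb, an orphan nuclear receptor gene of the naive state, had 9 and 4 peaks, and 6 in NanogWT at equal list size. In the same window the full lists of the other targets went the other way, with 0 and 5 BRG1, 1 and 5 FLAG and 1 and 3 H3K27ac peaks. Its promoter region was shared, with 20 tags in NanogWT and 15 in NanogBiD at 0.014 kb from a start, 6 other regions were lost and 1 was gained 18.6 kb from a start. Tfcp2l1, a naive-state transcription factor gene, kept its start peak (13 and 16 tags) and lost 4 other regions, the strongest of them a NanogWT peak of 18 tags and score 264.2 located 45.8 kb downstream of a start. Tet1, which encodes a 5-methylcytosine dioxygenase, had 8 and 5 peaks and a start peak of 17 tags in both arms. Sox2 was called with 3 and 5 peaks, but its 3 regions were all shared, so the difference came from peaks split in NanogBiD. Klf2 and Nr5a2, the other called members, named after their values were seen, had 4 and 2, and 5 and 3 peaks. Start peaks were in both arms at 19 of 22 genes with one. They were in NanogWT only at 2 and in NanogBiD only at 1, against 7.84% and 8.3% of all genes with a start peak.

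At Nanog and Pou5f1, whose sequences the transgenes carry, peaks could not be assigned to the gene or the transgene. Nanog had 2 lost regions with the summit in an exon, at 18 and 23 tags, 1 gained region at 11 tags and 1 shared region. Pou5f1 had 1 lost region with 46 tags and 1 gained region with 78 tags, neither with its summit in an exon.

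Of 37 fibroblast and mesenchymal genes 12 had fewer peaks and 1 more (26.5% and 4.7% over all genes), and together they had 165 and 133 peaks. With the equal lists 5 had fewer and 6 more, against 11.4% and 12.4% over all genes, and the total was 127 in NanogWT. Col1a2, a chain gene of type I collagen, had 5 and 1 peaks. Its start peak of 18 NanogWT tags was lost, while a region 15.7 kb upstream was shared with 17 and 20 tags. Tgfbr2 and Tgfbr1, the receptor genes of TGF-beta, had 13 and 8, and 5 and 2 peaks, and Tgfbr1 kept its start region (24 and 23 tags). Col6a2, a collagen VI gene, also had 5 and 2. Postn, which encodes the matrix protein periostin, was the member with more, 1 and 3 peaks, from 1 lost and 3 gained regions, among them regions 3.24 kb and 2.44 kb upstream of a start that each had 15 tags.

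Of 26 epithelial genes 7 had fewer and 2 more, a share with fewer that is near the 26.5% over all genes, where 4.7% had more. With equal lists 3 had fewer and 3 more, against 11.4% and 12.4% over all genes. Grhl2, a grainyhead factor gene that drives epithelial programmes, had 13 and 7 peaks, with 6 lost and 1 gained region and a shared start region of 24 and 13 tags. Cdh3, the P-cadherin gene, had 6 and 3. Spint2, a serine protease inhibitor gene, had 4 and 7 peaks from 1 gained and 4 shared regions, and Esrp2, an epithelial splicing regulator gene, 2 and 4.

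Among 25 genes of the AP-1, TEAD and RUNX families and their partners, 9 had fewer peaks and 1 more (26.5% and 4.7% over all genes), with 175 and 132 peaks in all. With equal lists 6 had fewer and 2 more (11.4% and 12.4% over all genes), with 140 peaks in NanogWT. Runx2, the osteoblast master regulator gene, had 26 and 14 peaks with 15 lost, 3 gained and 11 shared regions, and Runx1 22 and 14. Tead4, which encodes a Hippo pathway transcription factor, had 7 and 4, and Yap1, the gene of its coactivator, 6 and 3. Maff, a small Maf gene, went the other way with 2 and 6 peaks, 4 gained regions and none lost.

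Of 19 genes of H3K4 methylation enzymes and partners 7 had fewer and 1 more (26.5% and 4.7% over all genes), and at equal list size 1 and 3 (11.4% and 12.4% over all genes). Setd1a, which encodes a methyltransferase of H3K4, had 7 and 4 peaks, Rcor1, a partner gene of the demethylase KDM1A, 7 and 4, Kmt2d 4 and 2, and Ncoa6, a subunit gene of the KMT2C and KMT2D complexes, 2 and 4. Of 28 BAF subunit genes 11 had fewer and none more, against 26.5% and 4.7% over all genes, and at equal list size 1 and 5, against 11.4% and 12.4%, so that no direction held for this group under both list lengths. Dpf3, which encodes a subunit that reads acetylated histones, had 6 and 1 peaks and its start region of 15 tags was lost, but with a score of 56.54 that NanogWT peak was not in the equal list. Arid1a, the gene of the large BAF subunit, had 11 and 7.

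Of 29 germ layer and trophoblast genes 7 had fewer and 1 more, near the 26.5% and 4.7% over all genes, and with equal lists 2 and 2 (11.4% and 12.4% over all genes). Pax6, a neural and eye regulator gene, had 8 and 4 peaks, Hand2, a heart and limb regulator gene, 5 and 2, and Tfap2a, a neural crest and surface ectoderm regulator gene, 3 and 5. Of 39 Hox genes 7 had fewer and 1 more, below the 26.5% over all genes for fewer peaks. With equal lists 5 had fewer and 8 more, with a median difference of 1, and over all genes the order also turned, to 11.4% with fewer and 12.4% with more. The same peaks were counted for several of them because their windows overlap. In the HoxD cluster Hoxd3 had 9 and 4, Hoxd4 7 and 3 and Hoxd8 4 and 1 peaks, and in the HoxA cluster Hoxa4 had 2 and 4. Regions with 13 to 15 NanogWT tags near Hoxd8 and Hoxd9 were lost, and a region of 22 and 23 tags between Hoxd4 and Hoxd8 was shared.

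Of 35 genes of TGF-beta, BMP and Wnt signalling 15 had fewer and 4 more (26.5% and 4.7% over all genes). At equal list size the counts were 8 and 9 (11.4% and 12.4% over all genes). Tcf7l2, which encodes a Wnt effector of the TCF family, had 14 and 6 peaks, Smad1, the gene of a BMP effector, 8 and 3, and the Wnt co-receptor gene Lrp5 12 and 7. Id1 and Id4, target genes of BMP signalling, had 3 and 5 peaks each, as did Smad2 and the receptor gene Acvr2a. At Id1 a region of 24 NanogBiD tags 1.04 kb upstream of the start was gained. The median difference was -1 in 6 of the 9 lists and 0 in the other 3, against -1 over all genes. With equal lists it was 0 in 8 of them and 1 for Hox genes, against 0 over all genes.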

How the data were processed

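The data were H3K4me1 CUT&Tag peak lists of both arms at day 5, 1 merged library each, with the FLAG, BRG1 and H3K27ac lists of the same arms. Per the labels and the study's methods, the authors trimmed reads with Trim Galore 0.6.4, aligned them to mm10 with Bowtie2 2.4.5, used SAMtools 1.16.1, merged replicates and called peaks with MACS 1.4.2. The study makes a general statement that experiments were repeated, but how many replicates were merged into each of these libraries, and whether a control library was used, are not given in the sources used here. The labels and the methods differ in the kit and the number of cells per sample. The deposited peak score is -10 times the log10 of the p-value. The deposited summit signal is the tag pileup, not scaled to depth, and depth is unknown.

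Peaks of both arms that overlapped or touched were merged into regions, and the taller peak gave the summit. Distances ran to the nearest of 132758 transcript starts of GENCODE M21, on GRCm38, the assembly of mm10. Places were promoter (within 2 kb of a start), exon, intron and intergenic. Peaks per gene were counted over 21979 protein-coding genes and 20 kb on either side, and a gene was called at a difference of at least 2 peaks. Other targets counted as present with an overlap of at least 1 bp. Shares have Wilson intervals and medians order-statistic intervals at 95%. With 1 library per arm there was no test. The computation used Python 3.11.15, numpy 2.4.6, pandas 2.3.3, scipy 1.17.1 and pysam 0.24.0, and was tested on simulated data. The columns not used numbered 0.

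Named genes were the 8 with the largest net loss and the 8 with the largest net gain of peaks at equal list size that changed the same way with the full lists. From each of 9 gene lists, called members that changed the same way at equal list size were named, mostly up to 3 per direction. Named regions had the highest scores, or were the tallest within 2 kb of a protein-coding start. The members and lists were chosen with earlier results of these data known. The alternatives were equal list size, the 20000 highest-scoring peaks, a score of at least 100 and 50% reciprocal overlap. The others were merging over gaps of up to 500 bp, protein-coding starts, chromosomes 1 to 19 and X only, and nearest-start assignment. In the last, each peak of a list was counted for the nearest protein-coding start within 100 kb.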

Additional observations from a re-analysis of the deposited data

How the results depend on the processing

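No paired analysis was possible because a single merged library stood for each arm. Of 68 alternative values 22 stayed within their interval or within 1.5 times the count, 41 moved and 5 reversed. At equal list size the lost share was 50.4% over all regions, 51.9% beyond 0.5 kb and 51.4% beyond 50 kb, and it reversed to 42.6% within 2 kb and 35.0% within 0.5 kb of a start. Lost and gained widths were then 866 and 716 bp, H3K27ac, with its own lists at full length, was at 23.1% of lost and 33.8% of gained regions, and 2040 genes had fewer and 2215 more peaks. With the 20000 highest-scoring peaks the shares were 50.03%, 55.0% and 55.8%, reversed to 36.9% and 31.2% near starts, with widths of 1247 and 1045 bp, H3K27ac, its lists limited likewise here and at scores of at least 100, at 27.9% and 40.4%, and 837 genes with fewer against 1092 with more peaks, the opposite order to the full lists. With scores of at least 100 the lost share was 74.97% over all, 66.6% within 2 kb, 60.6% within 0.5 kb, 77.66% beyond 0.5 kb and 77.65% beyond 50 kb, widths were 1131 and 1011 bp, H3K27ac was at 27.1% and 43.6%, and 2860 and 285 genes were called. With 50% reciprocal overlap these shares were 64.0%, 59.2%, 53.7%, 65.1% and 64.4%, widths 825 and 719 bp and H3K27ac 24.8% and 36.5%. Merging peaks up to 500 bp apart gave a lost width of 802 bp and H3K27ac at 19.6% and 29.3%. With protein-coding starts only the share was 57.2% within 2 kb and reversed to 48.8% (46.6 to 50.9, which includes 50%) within 0.5 kb. With each peak counted for its nearest protein-coding start within 100 kb, 3636 genes had fewer and 679 more peaks. Limiting the peaks to chromosomes 1 to 19 and X left all 11 values within their limits, which is 11 of the 22. The results near 0.5 kb, and the equal-list values by CpG number, other target and octamer, were added after seeing the data. The cause of these changes was not tested. Library depth is unknown and each arm is 1 merged library, so the spread between cultures cannot be given, and a region without a called peak may still carry the mark.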
